A study of Homo sapiens with 15 samples.

Results

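The genes described here are 50 genes of the mitotic spindle, the kinetochore and cytokinesis, listed by name. The list uses no measured value as a criterion, but it was drawn up with earlier results of these data known. They were followed in parental BT474 cells, a human breast cancer line with HER2 amplification, and in 4 lines (clones 1, 2, 3 and 6, labelled C# with that number) selected from it for resistance to T-DM1. T-DM1, trastuzumab emtansine, links a HER2 antibody to a drug that blocks microtubules. Per the labels' protocols, each resistant line grew from a single cell after long exposure of the parental cells to the drug and was kept in 5 nM of it for 3 months, so each stands for 1 clone. The parental cells are labelled as sensitive, all lines share the same medium, and the labels do not say if T-DM1 was in it when RNA was taken. There were 3 arrays per line, called biological replicates, for 5 lines. Clonal selection, drug culture and resistance cannot be told apart in this design. A probe set named for the gene was available for 38 of the 50 genes, and all 38 lay above the limit set for dim probe sets. They are 38 of 12147 genes tested. The other 12 (NUF2, SPC24, SPC25, CENPE, CENPF, ZW10, TPX2, DLGAP5, ASPM, ANLN, CIT and UBE2C) were not analysed here.

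In mitosis, kinesins of the spindle slide, align and depolymerise microtubules, and the kinetochore ties each chromosome to them. The spindle checkpoint, with BUB1, BUB1B, BUB3, MAD2L1 and TTK, holds cells before anaphase until all chromosomes are attached. The chromosomal passenger complex (AURKB, INCENP, BIRC5 and CDCA8) corrects faulty attachments and later moves to the midzone, where PRC1, KIF23, KIF20A and ECT2 act in cytokinesis. Transcripts of most of these genes accumulate late in the cell cycle, so their level in a culture moves with the share of cells in G2 and mitosis. Fewer such cells and less RNA per cell cannot be told apart in these bulk samples. Microtubule poisons such as the drug part of T-DM1 act on the same spindle.

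Many late cell cycle genes carry the cell cycle genes homology region, an element bound by the DREAM and MYB-MuvB complexes, often with CCAAT boxes bound by NF-Y. The promoters of the 5 genes with the smallest adjusted p are shown so that these letters can be seen beside the results. CENPN was added after its values were seen, because it was called lower in clones 1 and 2 and in neither of the other clones. Each runs from 170 bases before to 30 after the gene start on the gene's strand, from RefSeq (GRCh38.p14). Capitals mark TTTGAA and CCAAT on either strand, so also TTCAAA and ATTGG, and matches were counted where they overlap as well. The windows are chr5:138178942-138179141 (plus strand), chr11:28108127-28108326 (minus), chr15:41332711-41332910 (plus), chr15:69414179-69414378 (plus), chr15:90994506-90994705 (minus) and chr16:81007044-81007243 (plus).
KIF20A: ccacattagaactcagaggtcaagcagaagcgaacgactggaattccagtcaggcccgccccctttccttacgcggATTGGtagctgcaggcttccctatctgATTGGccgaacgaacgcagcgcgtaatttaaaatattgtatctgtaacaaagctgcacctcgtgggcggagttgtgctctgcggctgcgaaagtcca
KIF18A: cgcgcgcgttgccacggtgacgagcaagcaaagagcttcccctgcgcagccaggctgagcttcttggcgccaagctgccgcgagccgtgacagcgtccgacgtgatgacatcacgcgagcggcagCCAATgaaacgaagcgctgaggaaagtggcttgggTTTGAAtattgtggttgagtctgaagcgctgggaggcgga
NUSAP1: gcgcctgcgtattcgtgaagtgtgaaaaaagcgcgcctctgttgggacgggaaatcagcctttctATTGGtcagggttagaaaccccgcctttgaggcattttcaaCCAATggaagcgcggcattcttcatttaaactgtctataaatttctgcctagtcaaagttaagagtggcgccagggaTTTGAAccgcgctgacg
KIF23: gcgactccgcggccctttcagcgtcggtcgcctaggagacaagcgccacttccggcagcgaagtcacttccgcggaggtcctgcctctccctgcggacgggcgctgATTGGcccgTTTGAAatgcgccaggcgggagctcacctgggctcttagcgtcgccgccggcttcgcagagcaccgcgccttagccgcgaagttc
PRC1: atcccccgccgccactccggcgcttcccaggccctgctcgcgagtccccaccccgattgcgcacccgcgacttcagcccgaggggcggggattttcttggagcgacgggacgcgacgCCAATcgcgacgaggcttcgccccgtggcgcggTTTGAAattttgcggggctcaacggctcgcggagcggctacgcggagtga
CENPN: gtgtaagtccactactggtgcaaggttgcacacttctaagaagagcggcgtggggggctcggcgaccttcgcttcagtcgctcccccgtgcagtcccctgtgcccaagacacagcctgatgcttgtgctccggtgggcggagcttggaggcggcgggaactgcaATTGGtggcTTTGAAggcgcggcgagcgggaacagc
KIF18A and PRC1 hold TTTGAA on the gene's strand at bases -10 to -5 and -20 to -15 from the start, each with a CCAAT upstream. KIF23 has it at -55 to -50, right behind an inverted CCAAT, while KIF20A has a couple of inverted CCAAT and no TTTGAA in this window. CENPN also has both, at bases 4 to 9 and, inverted, -6 to -2.

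Over the 44 listed genes with a promoter in the RefSeq table, 31 (70.5%) held TTTGAA somewhere in the 300 bases around the first listed start, against 15.4% of all 27305 promoters and 10.3% of the 9176 tested genes with a promoter. Within 60 bases of the start it was present in 28 (63.6%), against 5.07% of all promoters. CCAAT was present in 35 (79.5%) against 35.7%, and both in 26 (59.1%) against 6.08%. Among the kinesins 9 of 11 promoters held TTTGAA and among the kinetochore and checkpoint genes 10 of 16. Of the genes called lower in clone 6, 13 of 20 (65.0%) held it, and of those tested and not so called 10 of 14 (71.4%), so its presence did not separate them. By comparison, 1 of 33 promoters of G1/S and replication genes and 1 of 21 of kinesins for interphase transport held TTTGAA. It was also common in other mitotic lists, in 11 of 18 promoters of mitotic entry genes (61.1%) and 7 of 16 of cohesin and condensin genes (43.8%), so it is not particular to the listed genes. These are matches of letters and not measured sites.

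The values are log2 expression per probe set, as deposited. All 10 luminal epithelial markers with a named probe set (among them EPCAM, KRT18, KRT19 and FOXA1) lay above the dim limit on all 15 arrays, while of 13 markers of other cell types KRT5, DCN and LUM were above it on 0 arrays. Another 5 of the 13 (KRT14, OXTR, THY1, CSF1R and VWF) were above it on all 15 arrays, with group means of 3.86 to 5.68, and CD14, MYLK, LYZ, PECAM1 and KDR on 8, 2, 1, 1 and 1. The luminal markers did not all keep their level. GATA3 changed by -2.89, -3.14, -0.76 and -2.36 in clones 1, 2, 3 and 6. ESR1 changed by -0.84, -0.61, -0.43 and -0.55, and both were called lower in every clone. KRT8, KRT18 and SPDEF were called lower in some clones, and EPCAM was called higher in clones 1, 2 and 6. The upper quartile of the parental arrays was 5.94 to 5.96 and that of the clone arrays 5.80 to 5.89. Within clones 1 and 2, the third arrays stood apart for the listed genes. The mean of the 38 genes relative to the parental mean was -0.16, -0.16 and 0.16 on the arrays of clone 1 and -0.19, -0.25 and 0.17 on those of clone 2. In clone 3 it was -0.28, -0.25 and -0.39, and in clone 6 -0.57, -0.37 and -0.36, while the parental arrays spanned -0.03 to 0.04. Thus every array of clones 3 and 6 lay below all parental arrays for this mean, whereas clones 1 and 2 each had 2 arrays below and 1 above. Replicates 3 of clones 1 and 2 were also the highest of their clone for 25 G1/S and replication genes (0.14 and 0.18, against -0.40 to -0.03 on their other arrays), as were the third arrays of clones 3 and 6 (0.28 and 0.39). The part of these arrays in the results was not tested beyond leaving them out.

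**Figure D1:**
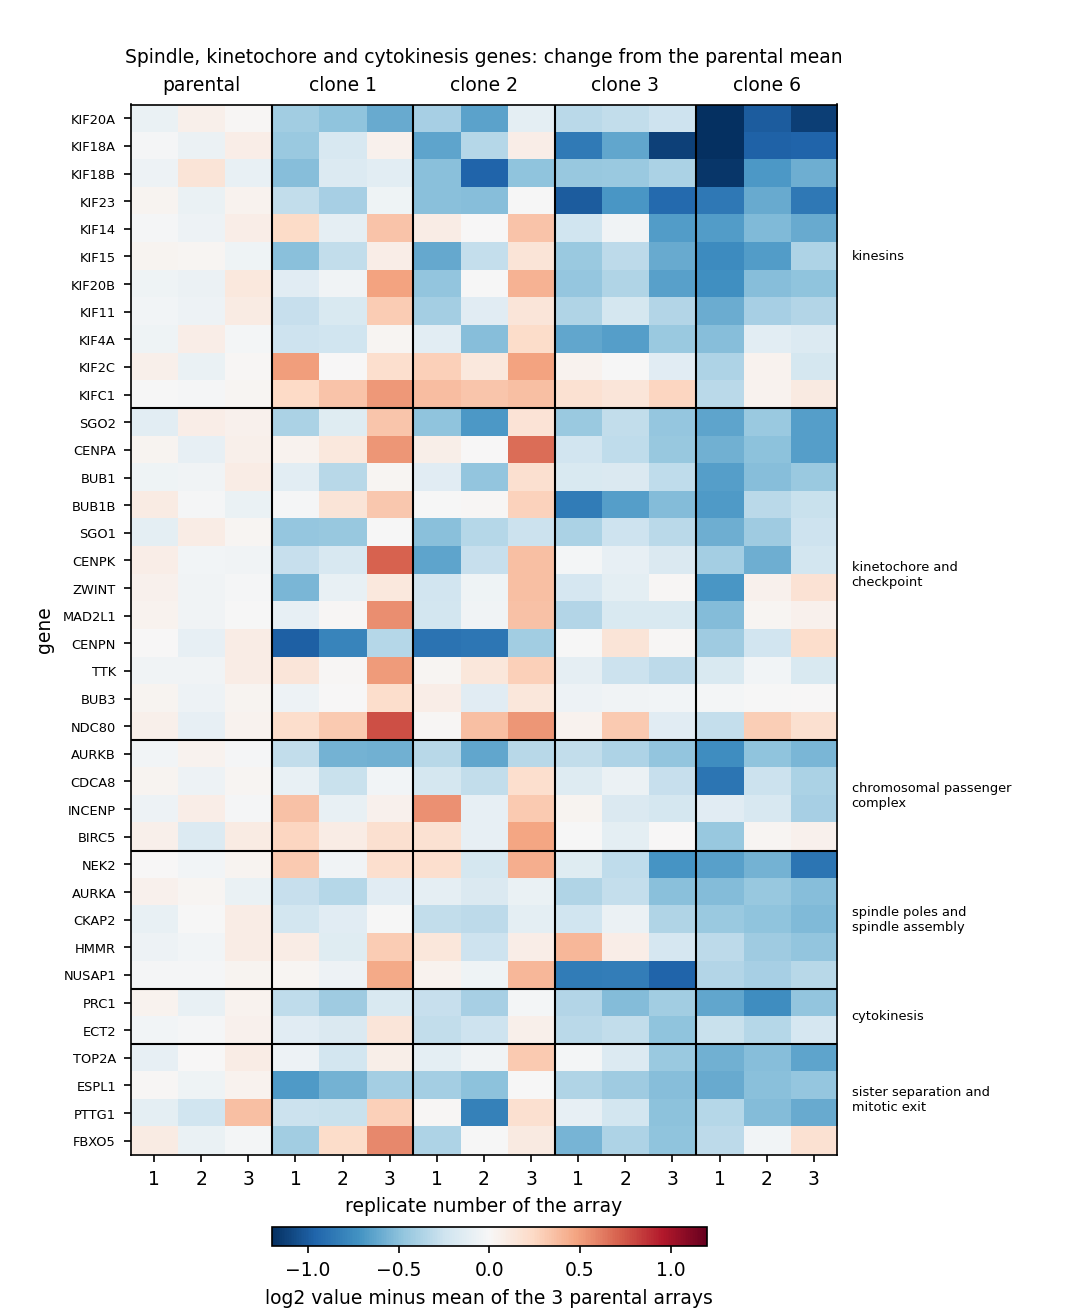
Log2 value of each of the 38 genes on each of the 15 arrays minus the mean of the 3 parental arrays (colour), with genes in rows by subgroup and arrays in columns by line and replicate number. Blue, lower than parental, fills most of the columns of clones 3 and 6, where the array means run from -0.57 to -0.25, while the third arrays of clones 1 and 2 are mostly red.

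Clone 6 showed the broadest fall of spindle genes. Of the 38 genes, 21 fell and 0 rose at an adjusted p below 0.05, with a median log2 change of -0.47, while among all genes tested 14.7% were lower and 7.73% higher and the median was -0.02. In clone 3, 10 fell and 0 rose with a median of -0.31, against 11.0% lower and 6.22% higher among all genes. Clone 1 had 4 lower and 1 higher (median -0.06) where 11.2% of all genes were lower and 6.03% higher. Clone 2 likewise had 4 lower and 1 higher (median -0.11), against 11.5% and 5.47%, so the share of lower genes in clones 1 and 2, 10.5% in each, was near the background. In total 26 genes were called in at least 1 clone, where 37.5% of all genes were. The comparisons share the parental arrays, so the clones' values are given side by side and not as independent repeats. Clones 1 and 2 were called different from each other in 0 of the 12147 genes, where the other pairs of clones differed in 9.01% to 16.8%. A result seen in both clones 1 and 2 is therefore not counted as 2 separate ones.

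Read array by array, all 3 arrays lay below all 3 parental arrays for 28 genes in clone 6 (24.1% of all genes), 24 in clone 3 (22.3%), 7 in clone 1 (21.8%) and 6 in clone 2 (22.1%). The parental arrays were close together for these genes, with an SD of 0.31 for PTTG1 and 0.02 to 0.14 for the others. The median SD within groups was 0.20 over the listed genes and 0.16 over all genes.

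The counts depended on single arrays and on the scaling. Without the third arrays of clones 1 and 2, a setting chosen after seeing the data, clone 1 had 6 lower and 0 higher genes (median -0.18), clone 2 had 11 lower and 0 higher (median -0.25), clone 3 had 14 lower and clone 6 had 24 lower, and 8.89%, 10.4%, 11.3% and 15.2% of all genes were lower. The count of called genes in clone 1 dropped from 5 to 3 without parental replicate 2. In clone 2 it dropped from 5 to 1 without replicate 2 of clone 2, to 2 without parental replicate 2, and to 3 without parental replicate 1, parental replicate 3 or replicate 1 of clone 2. In clone 3 it dropped from 10 to 6 without parental replicate 1, parental replicate 3 or replicate 2 of clone 3. Of the 21 calls in clone 6, 12 held under every alternative, a stricter threshold included. Without replicate 1 of clone 6, 7 of the 41 calls against the parental line were lost, all of them in clone 6. With quantile normalization renewed, 4, 3, 8 and 17 listed genes were lower in clones 1, 2, 3 and 6 while 8.69%, 8.54%, 8.61% and 10.8% of all genes were. With arrays centred on their medians the lower genes numbered 4, 4, 10 and 21 and none of the 38 was called higher in any clone (0 each), while 11.5%, 12.3%, 11.2% and 15% of all genes were lower.

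**Figure D2:**
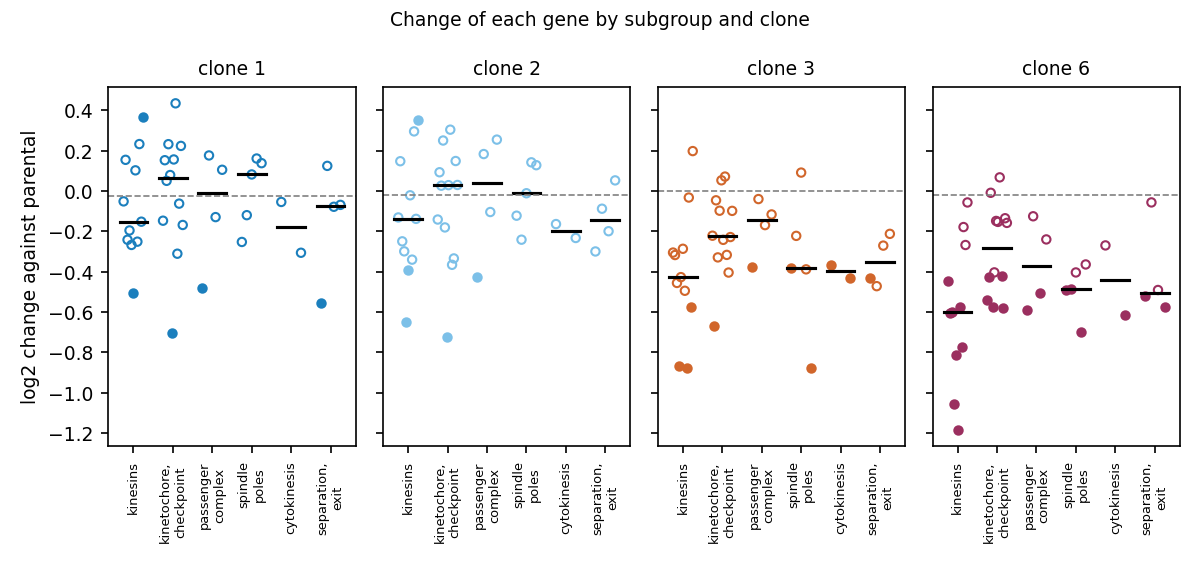
Log2 change against the parental line (y axis) for each gene, by subgroup (x axis) in 4 panels for clones 1, 2, 3 and 6. Filled points have an adjusted p below 0.05, black bars are subgroup medians and the dashed line is the median of all 12147 genes; the kinesin median runs from -0.15 in clone 1 to -0.60 in clone 6.

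In clone 3 many genes of chromosome 15 were lower, listed or not. All 4 listed genes measured on chromosome 15 (BUB1B, KIF23, NUSAP1 and PRC1, placed by RefSeq, GRCh38.p14) fell there, with a median of -0.77. Of 375 other tested genes of chromosome 15 that are in none of the lists used here, 133 (35.5%) were also lower in clone 3, with a median of -0.22. In clones 1, 2 and 6, 10.4%, 11.5% and 17.9% of these 375 genes were lower. The 20 tested genes nearest to each had medians in clone 3 of -0.25 for KIF23, -0.08 for BUB1B, -0.06 for NUSAP1 and 0.02 for PRC1, smaller changes than those of the genes themselves. Of these 20 neighbours, 6, 5, 4 and 3 were called lower in clone 3, in the same order. Without chromosome 15, a split made after the values were seen, 6 of 34 listed genes fell in clone 3 (median -0.28) and 18 of 34 in clone 6 (median -0.47). With it, the counts were 10 and 21 of 38. Of all genes tested, chromosome 15 included, 11.0% and 14.7% were lower in clones 3 and 6. Copy number was not measured, and its part in the result was not tested.

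Among the subgroups, with the kinesins of cytokinesis counted as kinesins, the 11 mitotic kinesins had the lowest median in clones 3 and 6. In clone 6, 8 of them fell and 0 rose (median -0.60), in clone 3, 3 fell and 0 rose (median -0.43), in clone 2, 2 fell and 1 rose (-0.14), and in clone 1, 1 fell and 1 rose (-0.15). For this and the following subgroups, 11.2%, 11.5%, 11.0% and 14.7% of all genes were lower in clones 1, 2, 3 and 6. The shares higher were 6.03%, 5.47%, 6.22% and 7.73%. The 1 kinesin lower in clone 1 is 9.09% of the kinesins, below the share of all genes. The leading gene, KIF20A (MKLP2, which brings the passenger complex to the midzone), was measured at 8.27, 8.41 and 8.37 in parental cells and 6.92, 7.35 and 7.22 in clone 6. It was 7.93, 7.86 and 7.74 in clone 1, 7.94, 7.70 and 8.23 in clone 2 and 8.03, 8.05 and 8.10 in clone 3. No clone array reached the lowest parental one, and those of clone 6 stood well below all the others. KIF20A fell 2.27-fold in clone 6 (log2 change -1.18, SE 0.13, adjusted p = 9.99e-06), 1.42-fold in clone 1 (adjusted p = 0.0129) and 1.31-fold in clone 2 (adjusted p = 0.0489), and its change of -0.29 in clone 3 was not called (adjusted p = 0.149). Clones 3 and 6 differed for it by 0.90 (adjusted p = 0.000312). Here and below, a range after left-out arrays is that over leaving out each of the 15 arrays in turn. The clone 1 call was lost without parental replicate 2 or clone 1 replicate 3 (-0.55 to -0.45). The clone 2 call was lost without any 1 of 12 arrays (-0.52 to -0.26), without the limit for dim probe sets, with renewed normalization, with a replicate block and in a fit of the 6 arrays alone. The clone 6 call held under every alternative.

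KIF18A, which shortens the plus ends of kinetochore microtubules and damps chromosome movements, was at 7.55, 7.50 and 7.64 in parental cells. It was 6.71, 6.94 and 6.45 in clone 3 and 6.34, 6.59 and 6.60 in clone 6, against 7.12, 7.38 and 7.62 in clone 1 and 6.94, 7.22 and 7.64 in clone 2. All arrays of clones 3 and 6 were below every parental array, and the third arrays of clones 1 and 2 were at the parental level. It fell 1.82-fold in clone 3 (-0.86, SE 0.17, adjusted p = 0.00226) and 2.08-fold in clone 6 (-1.05, adjusted p = 0.000315), while clones 1 and 2, at -0.20 and -0.30, were not called (adjusted p = 0.494 and 0.252). Without the third arrays, KIF18A was called lower in clone 2 as well.

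KIF23 (MKLP1, a subunit of centralspindlin at the midbody) was at 9.29, 9.18 and 9.30 in parental cells, 8.26, 8.56 and 8.33 in clone 3 and 8.40, 8.66 and 8.40 in clone 6. In clone 1 it was 8.96, 8.86 and 9.21 and in clone 2 8.75, 8.75 and 9.26. Clones 3 and 6 did not overlap the parental arrays, whereas clones 1 and 2 did through their replicates 3. KIF23 fell 1.84-fold in clone 3 (-0.88, SE 0.14, adjusted p = 0.000547) and 1.71-fold in clone 6 (-0.77, adjusted p = 0.000886).

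KIF18B, which works at the plus ends of astral microtubules, was at 7.50, 7.71 and 7.47 in parental cells and 6.40, 6.87 and 6.97 in clone 6. It was 7.05, 7.40 and 7.43 in clone 1, 7.06, 6.59 and 7.07 in clone 2 and 7.11, 7.11 and 7.18 in clone 3. Every clone array lay below the parental ones, though those of clone 1 only just. It fell by 0.81 in clone 6 (SE 0.16, adjusted p = 0.00145) and by 0.65 in clone 2 (adjusted p = 0.00939). The clone 2 call was lost without its replicate 2 (-0.49), and clone 3 (-0.43, adjusted p = 0.0766) was not called.

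Of the other kinesins called, KIF11 (Eg5, which pushes spindle poles apart), KIF15, KIF14 and KIF20B fell in clone 6 and KIF4A, which binds chromosome arms and the midzone, fell in clone 3. The changes in clone 6 were -0.45 for KIF11 (adjusted p = 0.0422), -0.60 for KIF15 (0.0203), -0.60 for KIF14 (0.00781) and -0.58 for KIF20B (0.0377), and that of KIF4A in clone 3 was -0.57 (0.0175). In clone 1 KIF14 and KIF20B changed by 0.15 and 0.10 and were not called. All but that of KIF14 were lost on leaving out single arrays. KIF11 lost its call without any 1 of 9 arrays (-0.50 to -0.38) and with renewed normalization, and KIF20B without any 1 parental or clone 6 array (-0.62 to -0.50). KIF15 lost it without parental replicates 1 or 2 or clone 6 replicates 1 or 2 (-0.71 to -0.52) and with renewed normalization, and KIF4A without parental replicate 2 or clone 3 replicates 1 or 2 (-0.64 to -0.53). KIF4A has a near-identical copy, so its value is uncertain. It lies on the X chromosome, where 105 of 395 other tested genes (26.6%, median -0.14) were also lower in clone 3.

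KIFC1 (HSET, a minus-end motor that clusters extra spindle poles) was the only listed gene called higher in any clone. It was at 7.77, 7.76 and 7.79 in parental cells, 8.01, 8.11 and 8.29 in clone 1, 8.14, 8.10 and 8.13 in clone 2, 7.96, 7.92 and 8.04 in clone 3 and 7.45, 7.82 and 7.88 in clone 6. All arrays of clones 1, 2 and 3 exceeded the parental ones and those of clone 6 overlapped them. KIFC1 rose by 0.37 in clone 1 (SE 0.11, adjusted p = 0.0313) and 0.35 in clone 2 (adjusted p = 0.0379), with 0.20 (adjusted p = 0.253) in clone 3 and -0.06 in clone 6. Both calls were lost with arrays centred on their medians, without any 1 parental array and without the third arrays of clones 1 and 2. The clone 1 call was also lost without its replicates 2 or 3 (0.38 and 0.29), and the clone 2 call without any 1 of its own arrays (0.34 to 0.36). Of the other 3 of its 4 probe sets, 1 gave the same group means and 1 nearly the same, so they are not read as separate measurements. The remaining, dimmer probe set changed by 0.60 to 0.71 in all 4 clones, so the value of KIFC1 in clone 6 differs between probe sets. KIF2C (MCAK, a microtubule depolymerase) moved least among the kinesins, by 0.23, 0.30, -0.03 and -0.18, and was not called in any clone. It was 8.43, 8.28 and 8.37 in parental cells, 8.86, 8.36 and 8.56 in clone 1, 8.64, 8.49 and 8.84 in clone 2, 8.40, 8.36 and 8.23 in clone 3 and 7.99, 8.40 and 8.15 in clone 6. Clone 2 lay just above all parental arrays and the other clones overlapped them, and clones 2 and 6 differed from each other by 0.47 (adjusted p = 0.0316).

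**Figure D3:**
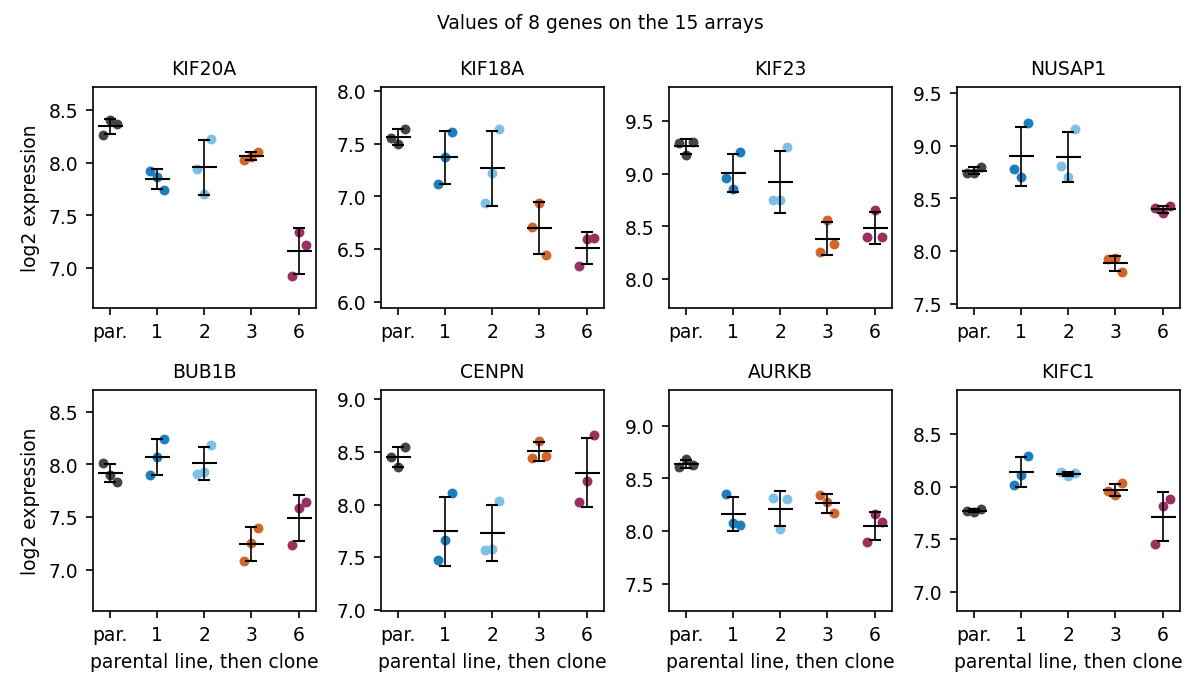
Log2 expression (y axis) of 8 genes on the 3 arrays of each line (points; x axis, parental line and clones 1, 2, 3 and 6), with the mean and SD of each group in black. KIF20A falls most in clone 6, NUSAP1 in clone 3 and CENPN in clones 1 and 2, AURKB is lower in every clone and KIFC1 is higher in clones 1 and 2; each panel spans the same range of log2 units.

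The kinetochore and checkpoint genes moved less than the kinesins. Of 12 measured, 5 fell in clone 6 (median -0.28) and 1 in each of clones 3, 1 and 2 (medians -0.22, 0.07 and 0.03), and 0 rose. The 5 genes are 41.7% of the subgroup, where 14.7% of all genes were lower. The 1 gene in each other clone is 8.33%, below the 11.0% to 11.5% of all genes. The checkpoint kinase-like protein BUB1B (BUBR1) was at 8.01, 7.90 and 7.84 in parental cells, 7.08, 7.26 and 7.40 in clone 3 and 7.24, 7.59 and 7.64 in clone 6. In clone 1 it was 7.90, 8.07 and 8.24 and in clone 2 7.91, 7.93 and 8.19. Clones 3 and 6 were entirely below the parental arrays and clones 1 and 2 at or above them. BUB1B fell 1.59-fold in clone 3 (-0.67, SE 0.13, adjusted p = 0.00217) and 1.34-fold in clone 6 (-0.43, adjusted p = 0.0272). The clone 6 call was lost with renewed normalization and without parental replicate 1, parental replicate 2 or clone 6 replicate 1 (-0.50 to -0.30).

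CENPN, a reader of the centromeric nucleosome, was lower in clones 1 and 2 and not called in clones 3 and 6. It was at 8.45, 8.36 and 8.54 in parental cells, 7.47, 7.66 and 8.11 in clone 1 and 7.57, 7.58 and 8.03 in clone 2, against 8.45, 8.60 and 8.46 in clone 3 and 8.02, 8.22 and 8.66 in clone 6. Only clones 1 and 2 lay wholly below the parental arrays, their replicates 3 included. CENPN fell 1.63-fold in clone 1 (-0.71, SE 0.18, adjusted p = 0.0106) and 1.65-fold in clone 2 (-0.72, adjusted p = 0.00904), with 0.05 in clone 3 and -0.15 in clone 6. It was lower in clone 1 than in clones 3 and 6 by 0.76 and 0.56 (adjusted p = 0.00662 and 0.0467) when tested directly. The clone 1 call was lost without its replicate 1 (-0.57), and that in clone 2 held under every alternative. CENPN lies on chromosome 16, where 16.5% and 16.3% of 558 other tested genes outside the lists were lower in clones 1 and 2. In clones 3 and 6 the shares were 5.56% and 6.27%. Medians of these 558 genes in clones 1, 2, 3 and 6 were -0.08, -0.07, 0.08 and 0.11. Copy number was not measured, and its part in the CENPN result was not tested.

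BUB1, the checkpoint kinase, was at 8.73, 8.74 and 8.87 in parental cells and 8.12, 8.27 and 8.34 in clone 6. It was 8.66, 8.44 and 8.80 in clone 1, 8.64, 8.30 and 8.97 in clone 2 and 8.60, 8.61 and 8.47 in clone 3. The arrays of clones 3 and 6 were all below the parental ones, and the fall of 0.54 in clone 6 was called (SE 0.14, adjusted p = 0.0109; lost without parental replicate 3, -0.49). CENPA, the histone H3 variant that marks centromeres, was at 7.70, 7.57 and 7.73 in parental cells and 7.09, 7.17 and 7.01 in clone 6. It was 7.71, 7.79 and 8.20 in clone 1, 7.73, 7.67 and 8.34 in clone 2 and 7.44, 7.36 and 7.21 in clone 3. Clones 1 and 2 reached above the parental range and clones 3 and 6 lay below it, and CENPA fell by 0.58 in clone 6 (SE 0.16, adjusted p = 0.0147; lost without parental replicate 3 or clone 6 replicate 3, -0.54 in each case).

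The shugoshins SGO1 and SGO2, which guard centromeric cohesion, fell in clone 6 by 0.42 (adjusted p = 0.0268) and 0.58 (adjusted p = 0.0377). The call of SGO1 was lost without parental replicates 2 or 3 or clone 6 replicates 1 or 2 (-0.51 to -0.34), and that of SGO2 without any 1 parental or clone 6 array (-0.65 to -0.54) and with renewed normalization. BUB3, a checkpoint scaffold, moved least of all listed genes, by 0.05, 0.03, -0.05 and -0.01. It was 8.83, 8.73 and 8.83 in parental cells, 8.74, 8.80 and 9.01 in clone 1, 8.88, 8.66 and 8.93 in clone 2, 8.73, 8.75 and 8.76 in clone 3 and 8.77, 8.79 and 8.80 in clone 6, with overlap throughout. MAD2L1, TTK, NDC80, CENPK and ZWINT were called in no clone, with changes between -0.40 (CENPK, clone 6) and 0.43 (NDC80, clone 1, adjusted p = 0.112).

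AURKB, the kinase of the chromosomal passenger complex, was lower in every clone. It was at 8.61, 8.68 and 8.63 in parental cells, 8.35, 8.07 and 8.06 in clone 1, 8.31, 8.02 and 8.31 in clone 2, 8.35, 8.28 and 8.17 in clone 3 and 7.90, 8.16 and 8.09 in clone 6. All 12 clone arrays lay below all parental arrays, the third arrays of clones 1 and 2 among them. It fell by 0.48, 0.43, 0.38 and 0.59 in clones 1, 2, 3 and 6 (SE 0.11; adjusted p = 0.00740, 0.0152, 0.0297 and 0.00125). The calls in clones 1 and 6 held under every alternative. That in clone 2 was lost without parental replicate 2 or clone 2 replicate 2 (-0.41 and -0.33), and that in clone 3 with renewed normalization and without any 1 parental array or clone 3 replicates 2 or 3 (-0.42 to -0.33). The 4 clones were not called different from each other for AURKB (F test, adjusted p = 0.488). AURKB was the only 1 of the 38 listed genes called lower in all 4 clones. Among all 12147 genes 443 were, which is a larger share.

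The partners of AURKB moved less. CDCA8 (borealin) was at 8.26, 8.17 and 8.25 in parental cells and 7.35, 7.97 and 7.85 in clone 6. It was 8.14, 7.96 and 8.20 in clone 1, 8.02, 7.93 and 8.43 in clone 2 and 8.07, 8.16 and 7.95 in clone 3. It fell by 0.51 in clone 6 (SE 0.15, adjusted p = 0.0240). Without replicate 1 of clone 6 the change was -0.32 and not called, and the call was also lost without parental replicates 1 or 3 (-0.49 in each case). Clones 3 and 6 lay below all parental arrays. INCENP, the scaffold, was at 8.41, 8.55 and 8.45 in parental cells, 8.82, 8.38 and 8.53 in clone 1, 9.02, 8.37 and 8.79 in clone 2, 8.51, 8.29 and 8.26 in clone 3 and 8.34, 8.28 and 8.07 in clone 6. BIRC5 (survivin) was at 7.40, 7.17 and 7.44 in parental cells, 7.59, 7.42 and 7.53 in clone 1, 7.52, 7.24 and 7.81 in clone 2, 7.33, 7.22 and 7.34 in clone 3 and 6.89, 7.36 and 7.39 in clone 6. Apart from INCENP in clone 6, whose arrays all lay below the parental ones, each clone overlapped the parental arrays for both genes and no change was called (-0.24 to 0.25, adjusted p from 0.270 to 0.895).

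Of the 5 measured genes of spindle poles and spindle assembly, 2 fell in clone 3 (median -0.38), 3 in clone 6 (median -0.49) and 0 in clones 1 and 2. NUSAP1, which bundles microtubules near chromosomes, was at 8.74, 8.74 and 8.80 in parental cells, 7.92, 7.93 and 7.80 in clone 3 and 8.41, 8.36 and 8.42 in clone 6. In clone 1 it was 8.78, 8.70 and 9.22 and in clone 2 8.81, 8.71 and 9.16. The arrays thus formed 3 levels, with clone 3 lowest, clone 6 between, and the parental line and clones 1 and 2 together. NUSAP1 fell 1.84-fold in clone 3 (-0.88, SE 0.13, adjusted p = 0.000323), its change of -0.36 in clone 6 narrowly missed the limit (adjusted p = 0.0594), and clone 3 was lower than clone 6 by 0.51 when tested directly (adjusted p = 0.0211).

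AURKA, the kinase that matures spindle poles, was at 9.49, 9.46 and 9.36 in parental cells, 9.07, 9.15 and 8.94 in clone 3 and 8.92, 8.99 and 8.93 in clone 6. It was 9.16, 9.09 and 9.30 in clone 1 and 9.33, 9.26 and 9.36 in clone 2. Only clone 2 reached the parental range. AURKA fell by 0.38 in clone 3 (SE 0.09, adjusted p = 0.00971) and 0.49 in clone 6 (adjusted p = 0.00115). CKAP2, a microtubule binder, was at 8.53, 8.61 and 8.70 in parental cells and 8.17, 8.13 and 8.08 in clone 6, with 8.39, 8.48 and 8.61 in clone 1, 8.32, 8.30 and 8.50 in clone 2 and 8.37, 8.55 and 8.25 in clone 3. Clones 2 and 6 lay below all parental arrays, and CKAP2 fell by 0.49 in clone 6 (SE 0.10, adjusted p = 0.00271) and was not called elsewhere.

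NEK2, a kinase that separates centrosomes, was at 7.0, 6.96 and 7.02 in parental cells and 6.34, 6.42 and 6.11 in clone 6. It was 7.31, 6.95 and 7.20 in clone 1, 7.19, 6.78 and 7.43 in clone 2 and 6.84, 6.68 and 6.28 in clone 3. It fell by 0.70 in clone 6 (SE 0.16, adjusted p = 0.00537), and clone 3 was below the parental arrays without being called (-0.39, adjusted p = 0.119). HMMR, a spindle protein and hyaluronan receptor, was at 8.36, 8.40 and 8.52 in parental cells, 8.51, 8.28 and 8.73 in clone 1, 8.56, 8.18 and 8.50 in clone 2, 8.82, 8.50 and 8.23 in clone 3 and 8.11, 8.0 and 7.96 in clone 6. Only clone 6 lay below the parental arrays, and its change of -0.40 was not called (adjusted p = 0.0613).

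Both measured cytokinesis genes outside the kinesins were lower in clone 3. PRC1, which crosslinks midzone microtubules, was at 9.30, 9.16 and 9.30 in parental cells, 8.90, 8.73 and 8.84 in clone 3 and 8.63, 8.50 and 8.78 in clone 6, with 8.95, 8.82 and 9.07 in clone 1 and 8.98, 8.85 and 9.23 in clone 2. It fell by 0.61 in clone 6 (SE 0.11, adjusted p = 0.000968) and 0.43 in clone 3 (adjusted p = 0.0154), where the call was lost without parental replicates 1 or 3 or clone 3 replicate 2 (-0.48 to -0.38). The arrays of clones 1, 3 and 6 lay below all parental ones. ECT2, the exchange factor that activates RhoA at the cleavage site, was at 9.88, 9.90 and 9.97 in parental cells, 9.60, 9.63 and 9.44 in clone 3 and 9.66, 9.58 and 9.71 in clone 6. It was 9.78, 9.75 and 10.07 in clone 1 and 9.62, 9.67 and 9.98 in clone 2. It fell by 0.37 in clone 3 (SE 0.11, adjusted p = 0.0363), a call lost with renewed normalization and without any 1 parental or clone 3 array (-0.40 to -0.31). With the 5 kinesins of cytokinesis added (KIF23, KIF20A, KIF20B, KIF14 and KIF4A), 4 of 7 genes fell in clone 3 (median -0.43) and 5 of 7 in clone 6 (median -0.60).

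Among the 4 measured genes of sister separation and mitotic exit, ESPL1 (separase, the protease that cuts cohesin) was at 6.57, 6.50 and 6.59 in parental cells, 5.87, 5.98 and 6.15 in clone 1, 6.15, 6.06 and 6.55 in clone 2, 6.19, 6.12 and 6.05 in clone 3 and 5.95, 6.06 and 6.09 in clone 6. All clone arrays except replicate 3 of clone 2 were below the parental ones. It fell by 0.55, 0.43 and 0.52 in clones 1, 3 and 6 (SE 0.12; adjusted p = 0.00430, 0.0194 and 0.00465), with -0.30 (adjusted p = 0.0990) in clone 2. The clone 3 call was lost without parental replicates 1 or 3 or clone 3 replicate 3 (-0.47 to -0.40). TOP2A, topoisomerase II alpha, which untangles sister chromatids, was at 10.19, 10.30 and 10.38 in parental cells and 9.71, 9.78 and 9.65 in clone 6. It was 10.23, 10.07 and 10.36 in clone 1, 10.17, 10.25 and 10.60 in clone 2 and 10.26, 10.12 and 9.84 in clone 3. TOP2A fell by 0.58 in clone 6 alone (SE 0.13, adjusted p = 0.00424), with no overlap there.

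FBXO5 (EMI1), an inhibitor of the anaphase promoting complex, was at 5.07, 4.89 and 4.95 in parental cells, 4.55, 5.18 and 5.55 in clone 1, 4.60, 4.96 and 5.08 in clone 2, 4.41, 4.60 and 4.49 in clone 3 and 4.65, 4.94 and 5.15 in clone 6. Only clone 3 lay below the parental arrays (-0.47, adjusted p = 0.114). PTTG1 (securin, which holds separase back) was at 4.94, 4.83 and 5.42 in parental cells, 4.81, 4.80 and 5.35 in clone 1, 5.08, 4.26 and 5.26 in clone 2, 4.97, 4.84 and 4.57 in clone 3 and 4.72, 4.54 and 4.46 in clone 6. Neither gene was called in any clone. Both were among the dimmest listed probe sets, and PTTG1 has near-identical copies, so its value is uncertain.

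Differences between clones were tested directly. The F test called 15 of the 38 genes as different among the 4 clones (39.5%), where 22.5% of all genes were. No listed gene differed between clones 1 and 2 in limma (0 of 38, and 0% of all genes; 2 had an unadjusted p below 0.05). Clone 1 differed from clone 3 in 11 genes (16.8% of all genes) and from clone 6 in 15 (12.7%), and clone 2 differed from them in 9 (15.8%) and 14 (11.2%). In each of these pairs CENPN was the 1 gene lower in clone 1 or 2, and all the others were higher there. Clones 3 and 6 differed in 3 genes, 7.89% of the 38 and below the 9.01% of all genes. KIF20A and HMMR were lower in clone 6 and NUSAP1 lower in clone 3. The listed genes thus did not differ between clones 3 and 6 more often than all genes. Clone pairs depended on the third arrays: without those of clones 1 and 2, the counts were 6, 11, 4 and 9 for the same 4 pairs, where 13.2%, 9.66%, 13.7% and 9.23% of all genes differed. The counts of both pairs with clone 3 were then near or below the share of all genes. Leaving out 1 array, they dropped to as few as 4 (clones 1 and 3, without clone 1 replicate 3 or clone 3 replicate 3; 7 without clone 3 replicate 2), 7 (clones 1 and 6, without clone 1 replicate 3), 3 (clones 2 and 3, without clone 2 replicate 3 or clone 3 replicate 3) and 7 (clones 2 and 6, without clone 2 replicate 3). Without clone 6 replicate 3 both pairs with clone 6 had 9, and clones 3 and 6 differed in 1 gene, as they did without clone 6 replicate 1.

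**Figure D4:**
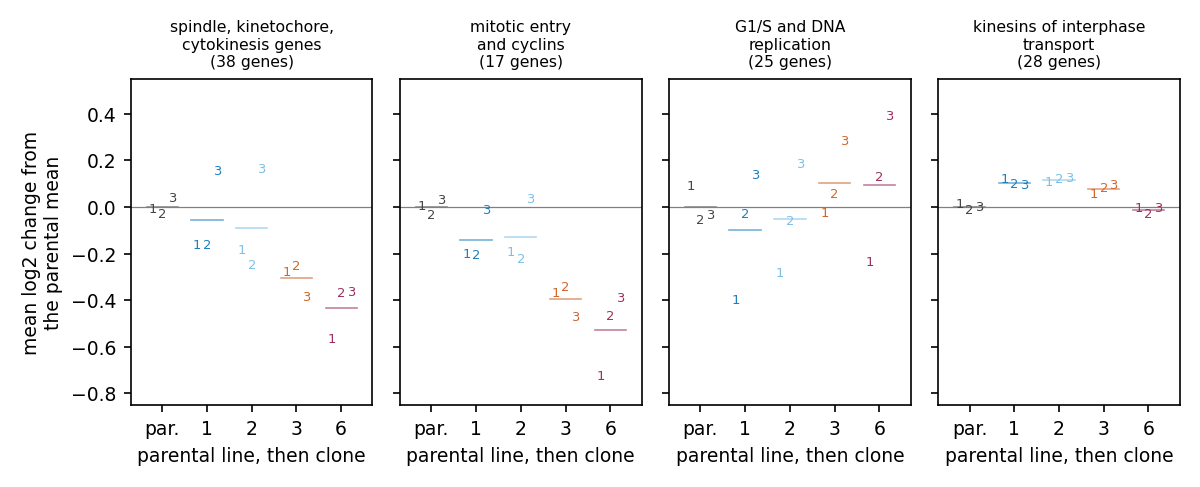
Mean log2 change from the parental mean (y axis) over 4 gene lists on each array, marked by its replicate number, for the parental line and clones 1, 2, 3 and 6 (x axis), with group means as lines. The spindle, kinetochore and cytokinesis genes and the mitotic entry genes are lower on all arrays of clones 3 and 6 than on the parental arrays, the replication genes spread around 0 and the transport kinesins stay between -0.03 and 0.12.

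For the lists of other genes below, the shares of all genes called lower in clones 1, 2, 3 and 6 were 11.2%, 11.5%, 11.0% and 14.7%, as above. Those called higher were 6.03%, 5.47%, 6.22% and 7.73%. Of 17 genes of mitotic entry measured, 9 fell in each of clones 3 and 6 (medians -0.42 and -0.43), 5 fell in clone 1 (-0.09), 2 fell in clone 2 (-0.04), and 0 rose. The 2 genes in clone 2 are 11.8% of the list, near the share of all genes, against 52.9% in each of clones 3 and 6. CCNB2, a cyclin of the mitotic kinase, changed by 0.03, -0.02, -1.0 and -0.95 in clones 1, 2, 3 and 6 (SE 0.11), CDC20, which activates the anaphase promoting complex, by -0.64, -0.42, -0.62 and -1.18, and WEE1, which restrains the mitotic kinase, by -0.09, -0.23, -1.13 and -1.26. CCNB2 lies on chromosome 15, where 13 of its 20 nearest tested genes were lower in clone 3 (median -0.55) and 8 in clone 6 (median -0.22).

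Of 21 other kinetochore genes, 6 fell in clone 6, 4 in clone 3 and 1 each in clones 1 and 2, with 0 higher. KNL1, which recruits the checkpoint, changed by -0.91 and -1.0 in clones 3 and 6 (SE 0.14) and by -0.03 and -0.14 in clones 1 and 2. Of 18 other pole and midzone genes, 6 fell and 1 rose in clone 6, 4 fell and 1 rose in clone 3, 2 fell and 0 rose in clone 1 and 1 fell and 1 rose in clone 2. PLK1 is counted both here and among the genes of mitotic entry. KNL1 is on chromosome 15, as is the leading gene of the pole list, KNSTRN, and the 20 genes nearest to each had medians in clone 3 of -0.12 and -0.08. KNSTRN, a spindle adaptor, changed by 0.26, 0.30, -0.80 and -0.53 (SE 0.10), and CKAP5, a microtubule polymerase, by 0.00, 0.04, -0.37 and -0.57 (SE 0.09).

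Of 17 genes of the anaphase promoting complex and its partners, 4 fell in clone 6 and 2 in each other clone, with 1 higher in clone 3 and 0 in the others. The 2 lower genes in a clone are 11.8% of the list, near the share of all genes, and the 4 in clone 6 are 23.5%. CDC20 and FZR1 are counted both here and among the genes of mitotic entry. Of 12 cohesin and condensin genes, 2 fell in each of clones 2, 3 and 6 and 0 in clone 1, where 1 rose. Of 25 genes of G1/S and DNA replication, 0 fell and 1 rose in clone 6 (median 0.12) and 1 fell and 1 rose in clone 3 (median 0.12), MCM6 of the replicative helicase being the one that rose. In clone 1 and in clone 2, 1 of them fell and 2 rose. In this list 1 gene is 4%, below the shares of all genes called lower or higher in each clone. Of 28 kinesins and kinesin light chains of interphase transport, 2 fell and 3 rose in clone 6 and 1 fell and 4 rose in clone 3, while 0 fell and 6 and 5 rose in clones 1 and 2. Those 6 and 5 genes are 21.4% and 17.9% of the list, where 6.03% and 5.47% of all genes were higher. KIF13B, a cargo motor, rose by 1.02, 1.04, 0.36 and 0.53 (SE 0.10), so kinesins as a family did not share 1 direction.

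Of 18 transcription regulators of the late cell cycle, 6 fell in clone 6, 3 in each of clones 2 and 3, and 2 in clone 1, with 0 higher. FOXM1, which drives G2 and mitotic genes, fell by 0.75, 0.71, 0.56 and 0.96 in clones 1, 2, 3 and 6 (SE 0.17, adjusted p from 0.000727 to 0.0325). It was therefore called lower in clones 1 and 2 too, where most listed genes were not called. E2F7, a repressor of the E2F family, changed by -1.17, -1.1, -0.56 and -1.06 (SE 0.26).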

How the data were processed

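Total RNA from 15 BT474 arrays was measured on Affymetrix gene arrays. The authors deposited log2 values for 53617 probe sets. The submitters' processing notes name RMA, the Expression Console of Affymetrix (1.4.1) and its Transcriptome Analysis Console, without the role of each. No genome build of the probe sets is given. RMA removes shifts shared by most genes and compresses changes of dim genes. Symbols came from the platform annotation, updated by gene identifier, and 16098 probe sets had 1 symbol. A probe set was kept if at least 3 arrays showed it above their own 40th percentile, and each gene was represented by its probe set of highest mean, leaving 12147 genes.

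The 15 arrays entered a single limma model (version 3.58.1, R 4.3.3) with 1 mean per line, lmFit followed by eBayes. Benjamini-Hochberg adjustment ran over all genes within each comparison, and calls required an adjusted p below 0.05. All tests are two-sided. The p-values rest on the spread between arrays of the same line, pooled over the 5 lines, and not on a spread between independent clones. The members, subgroups and lists were chosen with earlier results of these data known, so they were only counted. Values of every array are given for up to 4 genes per subgroup with the smallest adjusted p over the clones, for the gene of each subgroup that moved least, and for KIFC1, added after its values were seen, as was the split by chromosome 15. Every other called listed gene is named with its change, and 1 to 3 genes per other list, except cohesin and condensin, where none is named. Replicate numbers did not pair clones with the parental line (correlations of deviations -0.13 to 0.07). Between clones, only those of clones 1 and 6 were over 0.1 for every replicate number (0.18 to 0.22). For clones 1 and 2 they were 0.46, 0.09 and 0.34. In both of these pairs of clones, each clone 1 array correlated best with its own number. The steps were tested on simulated data. Alternatives were other filters and normalizations, a replicate block, leaving out arrays, fewer arrays per fit, other eBayes settings, array weights, the mean of probe sets and a stricter threshold. Figures used matplotlib 3.10.9 in Python 3.11.15.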

Additional observations from a re-analysis of the deposited data

Results flagged for a closer look

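Each gene below differed between 2 clones by limma at an adjusted p below 0.05, so that its change against the parental line differs between them. Values are log2 differences, the first clone minus the second. Between clones 1 and 3, KIF18A (0.67), KIF23 (0.63), KIF20B (0.6), KIF14 (0.47), BUB1B (0.82), TTK (0.45), CENPA (0.56), NUSAP1 (1.02), NEK2 (0.55) and FBXO5 (0.6) were higher in clone 1, and CENPN (-0.76) was lower there. Between clones 1 and 6, KIF18A (0.86), KIF23 (0.52), KIF20A (0.68), KIF20B (0.68), KIF14 (0.76), KIF18B (0.55), KIFC1 (0.42), BUB1B (0.58), CENPA (0.81), NUSAP1 (0.5), HMMR (0.49), NEK2 (0.86), CKAP2 (0.37) and TOP2A (0.51) were higher in clone 1, and CENPN (-0.56) was lower there. Between clones 2 and 3, KIF18A (0.57), KIF23 (0.54), KIF14 (0.47), BUB1B (0.76), TTK (0.38), CENPA (0.58), NUSAP1 (1.01) and NEK2 (0.53) were higher in clone 2, and CENPN (-0.78) was lower there. Between clones 2 and 6, KIF18A (0.76), KIF20A (0.8), KIF2C (0.47), KIF14 (0.75), KIFC1 (0.41), BUB1B (0.52), CENPA (0.83), INCENP (0.49), AURKA (0.37), NUSAP1 (0.49), NEK2 (0.84), PRC1 (0.38) and TOP2A (0.63) were higher in clone 2, and CENPN (-0.58) was lower there. Between clones 3 and 6, KIF20A (0.9) and HMMR (0.5) were higher in clone 3, and NUSAP1 (-0.51) was lower there. No cause of these differences was tested.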

How the results depend on the processing

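No result reversed, and 20 of the 41 calls against the parental line held under all alternatives run (12 of them for clone 6, 5 for clone 3, 2 for clone 1, 1 for clone 2). Counts of called listed genes outside 1.5 times the reported one were as follows. At an adjusted p below 0.01, clones 1, 2, 3 and 6 had 2, 2, 5 and 12 in place of 5, 5, 10 and 21, and the pairs of clones 1 and 3, 1 and 6, 2 and 3, 2 and 6, and 3 and 6 had 4, 6, 3, 6 and 1 in place of 11, 15, 9, 14 and 3. With array weights, clone 1 had 10. With only the arrays of the comparison, clone 3 had 19 and the pairs of clones 1 and 6, 2 and 3, and 2 and 6 had 9, 3 and 6. Without the third arrays of clones 1 and 2, clone 2 had 11 and the pairs of clones 1 and 3, 2 and 3, and 2 and 6 had 6, 4 and 9. The cause was not tested. Leaving out 1 array gave 3 to 5, 1 to 7, 6 to 12 and 14 to 22 called genes for clones 1, 2, 3 and 6 and 11 to 20 for the F test. It gave 4 to 13, 7 to 17, 3 to 9, 7 to 15 and 1 to 3 in those 5 pairs, and 0 between clones 1 and 2. With a replicate block, clones 1, 2, 3 and 6 had 6, 5, 12 and 23 and the pair of clones 1 and 6 had 17. The block ended 1 call (KIF20A in clone 2) and added 6. Of 30 pairs of same-numbered arrays, 10 correlated over 0.1 (-0.13 to 0.46 in all) and 14 correlated best with their own number. With 3 arrays per group, the number of arrays limits the precision, and PTTG1, FBXO5, SGO2 and CENPK were the dimmest listed genes.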
